A study of Homo sapiens with 4 samples.

Results

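Clone 4, a NOCT-KO line of A549 cells, was compared with WT A549 cells across all genes of the deposited count table. It was chosen by its sample name, and 3 of the 4 samples of the series enter: the clone 4 library, WT 1 and WT 2. The fourth sample, clone 5, is a second NOCT-KO line and serves only to show whether a change was shared. A549 cells are an established epithelial line, grown from a lung carcinoma. All 4 samples were grown in RPMI with serum, collected below confluency, and carried no treatment in their labels. WT 1 and WT 2 carry the genotype WT. Clones 4 and 5 were derived with lentiviral Cas9 and a guide against NOCT, puromycin selection and limiting dilution, so each is the progeny of a single cell. The labels and methods do not say whether the WT cells went through any of these steps, or whether WT 1 and WT 2 were separate cultures.

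NOCT (nocturnin) belongs to the family of deadenylase-like nucleases, but the human enzyme removes the 2′-phosphate of NADP+ and NADPH, giving NAD+ and NADH. The protein carries a mitochondrial targeting sequence, and its transcript is rhythmic in mouse liver. NADPH supplies electrons to lipid synthesis and to the glutathione and thioredoxin systems. A549 cells have high activity of NRF2, a transcription factor that induces many NADPH-linked enzymes, and are known to express several liver-type genes such as the fibrinogen chains.

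Poly-A RNA was sequenced, and the table holds raw counts per gene. Totals over genes were 41520262 for WT 1, 40938066 for WT 2, 36873556 for clone 4 and 41963070 for clone 5. Levels are in CPM, counts relative to the library total, after TMM (trimmed mean of M values) scaling, which sets the bulk of genes equal between libraries. Each clone is 1 library, so the tests took their spread from the WT pair alone, with 1 residual degree of freedom, and the clone 4 library was assumed to vary like WT. They measure the spread between these WT libraries, which may be technical, and say nothing of how cultures of clone 4 vary. GAPDH and RN45S, the ribosomal RNA precursor, varied between the WT libraries themselves. GAPDH stood at 14878 CPM in WT 1 and 5492 CPM in WT 2, and the clones had 17215 and 20014 CPM. RN45S was high in WT 2 and clone 4, with 11596 and 14588 counts, and low in WT 1 and clone 5, with 1648 and 1502 counts. KRT8 and KRT18, keratins of simple epithelia, had at least 29974 counts in every library. EPCAM had at most 6 counts, KRT7 at most 94, and KRT19 and MUC5B were listed at 0 in every library, so these epithelial markers were at or near 0.

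NOCT itself, listed under its older symbol CCRN4L (hg19 chromosome 4, 139936935 to 139967093), was at no lower level in clone 4 than in WT. Its transcript stood at 20.8 CPM in WT 1 and 20.1 CPM in WT 2, and clone 4 had 29.3 CPM against 15.6 CPM in clone 5. The clone 4 library stood above both WT libraries, with a log2 fold change of 0.52 (standard error 0.14, adjusted p = 0.0504 from edgeR), which missed the threshold of 0.05. With 4 of the alternative settings it passed, at adjusted p values from 0.027 to 0.047, and with the others that were tested it did not, at 0.051 to 0.142. The edit itself was not measured in these counts, so the value is no check on the knockout or the labels.

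Across 13630 genes tested, 559 were higher in clone 4 than in WT (4.1%) and 553 were lower (4.06%), at a Benjamini-Hochberg adjusted p under 0.05 in the quasi-likelihood test of edgeR. Without TMM the split was 461 higher and 737 lower. The spread between clone 4 and WT was wider than that of the WT pair. Over the 10041 genes averaging 5 CPM or more, the SD of the log2 ratio was 0.17 for WT 1 over WT 2, 0.40 for clone 4 over WT and 0.27 for clone 5 over WT. By a rule of size, with clone 4 at least 2-fold beyond each WT library and farther than the WT libraries were from each other, 121 genes were higher (0.888%) and 209 were lower (1.53%). Of these 330 genes, 291 also passed the edgeR test. The number past 2-fold was 448 without WT 1 and 504 without WT 2. Counted apart from size, and partly overlapping these, 59 genes had at least 10 counts in both WT libraries and 0 in clone 4. Of the 59, 18 passed the test. In the other direction, 4 genes had 0 counts in both WT libraries and at least 10 in clone 4. That rule asks for 0 in both WT libraries and the first for 0 in 1 library, so the counts are not like for like.

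**Figure D1:**
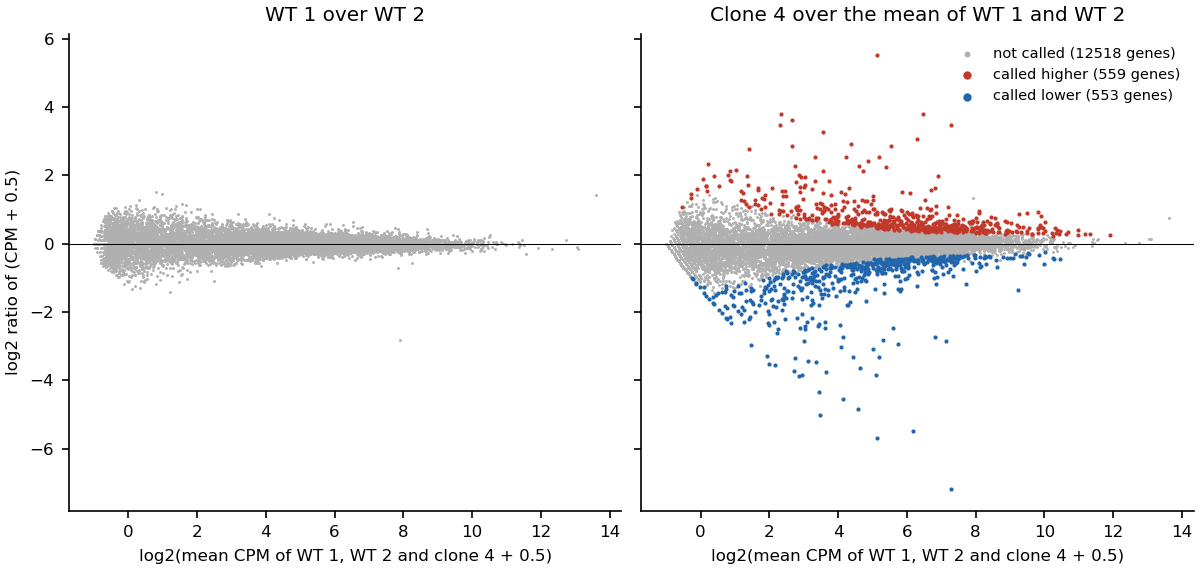
Log2 ratio of (CPM + 0.5) against the log2 mean level, each point 1 of the 13630 genes tested, for WT 1 over WT 2 (left) and clone 4 over the WT mean (right). The WT pair (SD 0.17 over genes with at least 5 CPM) scatters more narrowly than clone 4 over WT (SD 0.40), where the 559 genes called higher and 553 called lower are coloured.

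The falls and rises were not spread evenly over the genome. Genes on chromosome 16 were lower in clone 4 as a group, and genes on chromosome 1 from 200 Mb to its end were higher. Of 442 chromosome 16 genes averaging 5 CPM or more, 417 (94.3%) stood below both WT libraries in clone 4, 159 were called lower and 1 was called higher. Their median log2 ratio was −0.40, a ratio of 0.756, with quartiles at −0.54 and −0.27. The shift ran along the whole chromosome, with medians from −0.45 to −0.37 in its 5 windows of 20 Mb. It held for genes of low, middle and high WT level, with medians of −0.45, −0.43 and −0.37. The same genes had a median of −0.056 for WT 1 over WT 2 and of 0.14 for clone 5 over WT, so that clone 5 moved the other way.

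On chromosome 1 from 200 Mb, 174 of 193 genes (90.2%) stood above both WT libraries in clone 4, 75 were called higher and 2 lower. The median log2 ratio was 0.33, a ratio of 1.26, with quartiles at 0.22 and 0.53. The medians in the 3 windows of 20 Mb were 0.46, 0.32 and 0.31. Below 200 Mb on the same chromosome the median over 800 genes was 0.029. The window next to the limit, from 180 to 200 Mb, had a median of 0.058. In it 11 of 35 genes (31.4%) were called higher and 5 lower (14.3%), against 5.10% and 4.52% of all placed genes. In clone 5 the genes from 200 Mb on had a median of −0.057, and WT 1 over WT 2 gave 0.011. The other 21 chromosomes had clone 4 medians between −0.020 and 0.052. Over all genes tested, chromosome 16 held 4.40% of genes and 30.6% of those called lower, and chromosome 1 from 200 Mb held 1.78% of genes and 13.6% of those called higher. Without both regions, an alternative chosen after seeing the data, 482 genes were higher and 379 lower among 12787. DNA was not measured, and the number of copies of these regions was not tested.

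**Figure D2:**
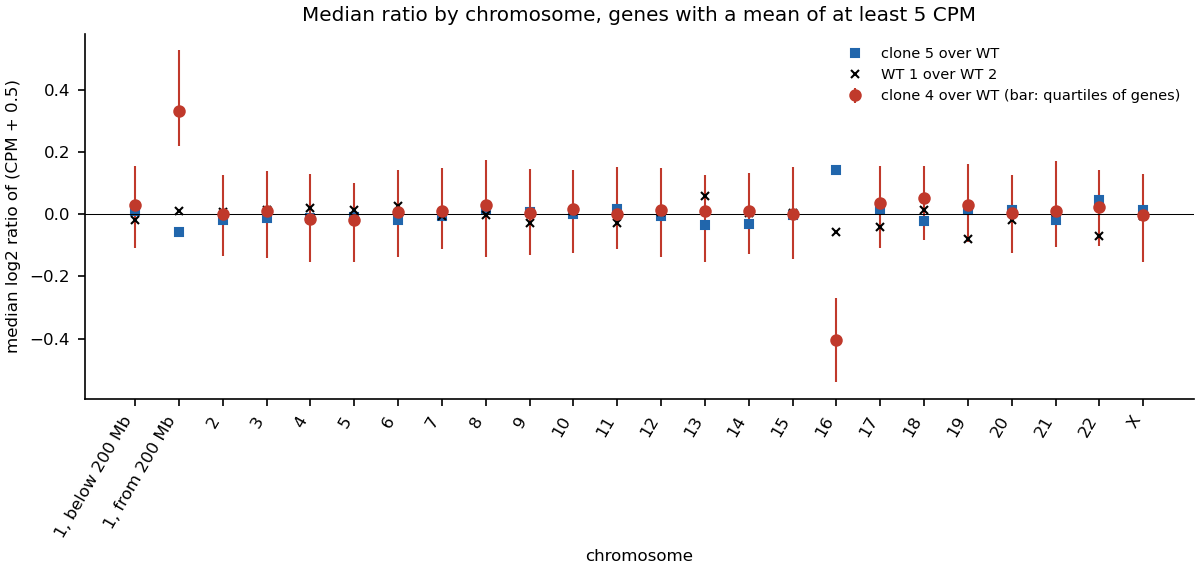
Median log2 ratio of (CPM + 0.5) by chromosome, over genes averaging 5 CPM or more, for clone 4 over WT (circles, bars from the lower to the upper quartile of genes), clone 5 over WT (squares) and WT 1 over WT 2 (crosses). Chromosome 16 (median −0.40) and chromosome 1 from 200 Mb (0.33) depart in clone 4, while the other 21 chromosomes lie between −0.020 and 0.052.

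The genes named here moved by more than their regional medians. On chromosome 16, DOK4, an adaptor of receptor tyrosine kinases, had 69.0 CPM in both WT libraries, 25.8 CPM in clone 4 and 73.5 CPM in clone 5 (log2 fold change −1.42, standard error 0.11, adjusted p = 0.000135). The membrane protein EMP2 had 135 and 147 CPM in WT and 71.7 CPM in clone 4. CACNA1H, a T-type calcium channel subunit, had 75.1 and 78.7 CPM in WT, against 38.4 CPM in clone 4 and 110.3 CPM in clone 5. SEPHS2, which makes the selenium donor for selenoproteins, had 152 and 162 CPM in WT against 85.0 CPM, and FANCA, of the Fanconi anaemia DNA repair complex, had 58.2 and 58.7 CPM against 35.0 CPM. These falls were each larger than the gap between the WT libraries. On chromosome 1, ATP2B4, a plasma membrane calcium pump, had 62.1 and 58.8 CPM in WT and 125 CPM in clone 4. ENAH, an actin regulator, had 447 and 441 CPM in WT and 673 CPM in clone 4. WDR26 and CHML also rose, from 269 and 293 CPM to 478 CPM and from 336 CPM in both WT libraries to 514 CPM. PLXNA2, a semaphorin co-receptor, rose in both clones, from 3.94 and 4.33 CPM in WT to 14.3 CPM in clone 4, with 10.9 CPM in clone 5.

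The largest falls left transcripts at or near 0 in clone 4, and for most of these genes clone 5 was not called lower than WT. A1CF, the RNA-binding cofactor of APOBEC1 in editing of the apolipoprotein B transcript (hg19 chromosome 10, 52559169 to 52645435), stood at 237 CPM in WT 1 and 230.0 CPM in WT 2, fell to 1.11 CPM in clone 4, and had 261 CPM in clone 5. It was 210-fold higher in WT (log2 fold change −7.71, standard error 0.16, adjusted p = 6.13e-08 from edgeR), and clone 5 did not pass the test against WT. SIDT1, a transmembrane protein of the family that carries double-stranded RNA in worms, had 600 and 718 counts in WT and 1174 in clone 5, but 0 in clone 4. Against a floor of 3 counts for the clone 4 library it was at least 189-fold lower in clone 4. MST4, a Ste20-type kinase now named STK26, had 57.7 and 45.3 CPM in WT and 45.9 CPM in clone 5, against 0.499 CPM in clone 4.

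KRT81, a keratin of hair, had 107 and 105 CPM in WT, against 1.89 CPM in clone 4 and 165 CPM in clone 5 (log2 fold change −5.81, standard error 0.15, adjusted p = 2.02e-07). GLI3, a transcription factor of Hedgehog signalling, had 14.4 and 16.2 CPM in WT, against 0.277 CPM in clone 4, with 16.8 CPM in clone 5. The sialyltransferase ST6GAL2 had 31.9 and 37.5 CPM in WT and 0.721 CPM in clone 4. RGL1, an exchange factor for Ral GTPases, had 23.5 and 27.0 CPM in WT and 0.61 CPM in clone 4, while clone 5 had 43.4 CPM. MAP7, which binds microtubules and recruits kinesin-1, had 50.6 and 48.1 CPM in WT, against 2.94 CPM in clone 4, with 48.7 CPM in clone 5. The monocarboxylate transporter SLC16A9 had 17.0 and 18.0 CPM in WT and 0.832 CPM in clone 4. In each of these genes clone 4 lay far below both WT libraries, and clone 5 lay near or above them.

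The non-coding RNA PART1 and FAM196B, NCKAP5 and FBXL16 complete the set of 15, the last of them on chromosome 16, together with ZEB2 and FSTL1, which are described with the matrix genes. Of these 15 genes, 14 also differed between clone 4 and clone 5 by the test. The 15 were picked for their clone 4 values, which that test uses again, so it adds no separate support. Clone 5 passed no test against WT for 10 of the 15, was higher than WT for 4 (SIDT1, KRT81, RGL1 and ZEB2) and lower for 1 (FSTL1).

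**Figure D3:**
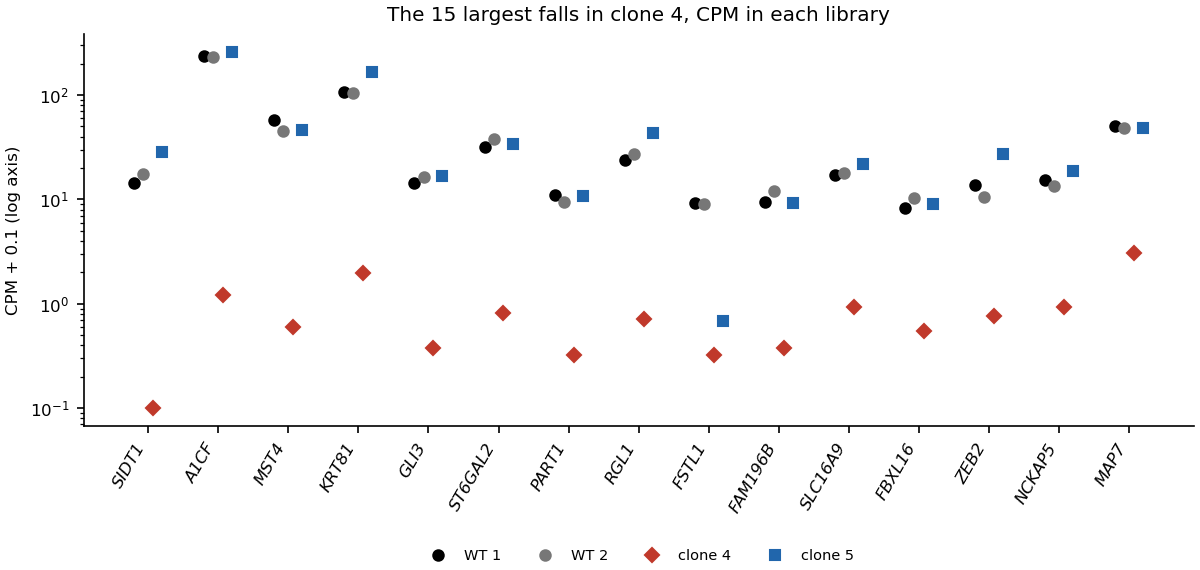
CPM + 0.1 on a log axis in WT 1, WT 2, clone 4 and clone 5 for the 15 genes with the largest falls in clone 4 among genes past the test that average 5 CPM or more. Clone 4 lies below both WT libraries in every gene, with SIDT1 at 0 counts, and clone 5 lies near or above WT in all but FSTL1.

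The 15 largest rises in clone 4 had log2 fold changes of at least 2.34. SVEP1, a large adhesion protein of the extracellular matrix, stood at 1.85 CPM in WT 1 and 1.59 CPM in WT 2, rose to 101 CPM in clone 4, and had 0.241 CPM in clone 5. It was 58.4-fold higher in clone 4 (log2 fold change 5.87, standard error 0.15, adjusted p = 2.02e-07 from edgeR). DIO2, the deiodinase that activates thyroxine, had 15.1 and 17.5 CPM in WT, against 231 CPM in clone 4 and 1.35 CPM in clone 5. TGM2, tissue transglutaminase, which cross-links proteins, had 32.8 and 37.8 CPM in WT, against 399 CPM in clone 4 and 15.2 CPM in clone 5, an 11.3-fold rise. EFEMP1 (fibulin-3), of the matrix, had 2.56 and 2.60 CPM in WT, against 28.9 CPM in clone 4 and 2.21 CPM in clone 5. NRCAM, an adhesion molecule of the immunoglobulin superfamily, had 14.8 and 14.6 CPM in WT and 109.7 CPM in clone 4, with 4 counts in clone 5.

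ENPEP, the aminopeptidase A that cleaves angiotensin II, rose from 0.711 and 0.914 CPM to 15.7 CPM. C5AR1, the receptor of the complement fragment C5a, rose from 1.61 and 1.44 CPM to 14.2 CPM. BHLHE41, a repressor in the circadian clock, had 5.98 and 6.20 CPM in WT, against 49.0 CPM in clone 4, with 2.07 CPM in clone 5. The others of the 15 were FGA and FGB, described next, the glypican GPC6, the phospholipase PLA2G16, UNC13D of vesicle release, ARAP2, an activating protein for Arf GTPases, and TMTC1. All 15 differed between clone 4 and clone 5 by the test. They were picked for their clone 4 values, which that test uses again, so it adds no separate support. None of the 15 was called higher in clone 5 over WT, 9 were called lower there, and 6 were not called.

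**Figure D4:**
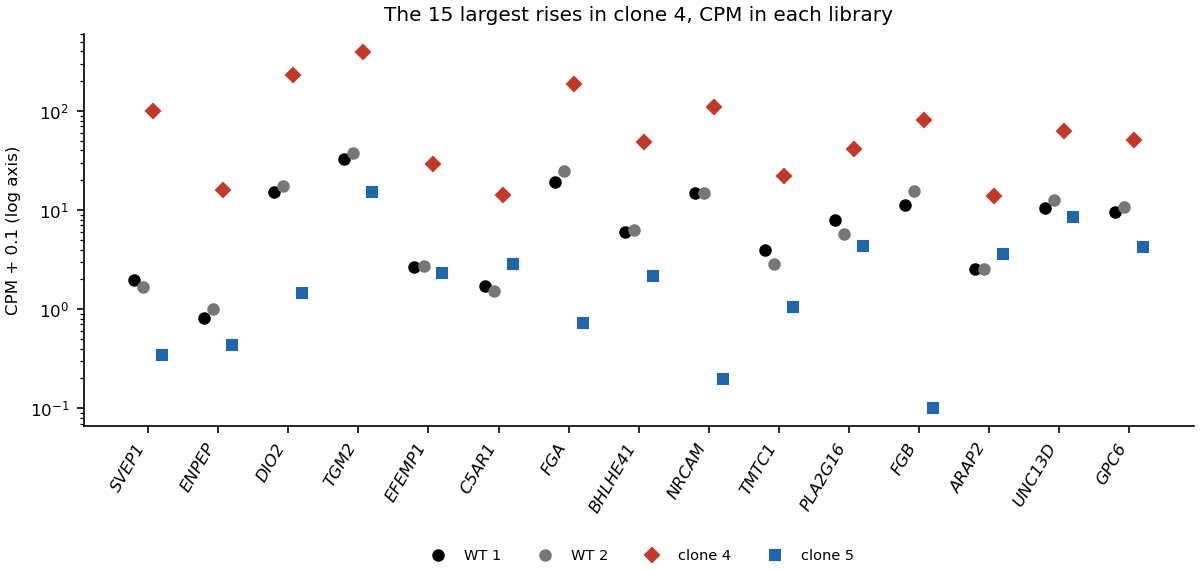
CPM + 0.1 on a log axis in WT 1, WT 2, clone 4 and clone 5 for the 15 genes with the largest rises in clone 4 among genes past the test that average 5 CPM or more. Clone 4 lies above both WT libraries in every gene, and clone 5 was called below WT for 9 of them.

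The fibrinogen chains rose together in clone 4. FGA, FGB and FGG encode the subunits of the clotting protein fibrinogen, are neighbours on chromosome 4, and are expressed mainly in liver. FGA stood at 19.3 CPM in WT 1 and 24.8 CPM in WT 2, rose to 188 CPM in clone 4, and had 0.625 CPM in clone 5. The edgeR log2 fold change of FGA was 3.10 with a standard error of 0.14 (adjusted p = 4.09e-06). FGB had 11.2 and 15.6 CPM in WT and 80.7 CPM in clone 4, and was at 0 counts in clone 5. FGG had 18 and 20 counts in WT, 464 in clone 4 and 0 in clone 5. Against a floor of 3 counts for the clone 5 library, FGB was at least 1118-fold and FGG at least 178-fold higher in clone 4 than in clone 5. The clones thus lay on opposite sides of WT for all 3 chains. The 250 bases before the start site of each are shown because the genes moved together. They come from RefSeq promoter sequences (GRCh38.p14), placed on hg19 by exact match, and read 5′ to 3′ in the direction of each gene. Capitals mark CTGGGA, the core of the element through which interleukin-6 acts on fibrinogen genes in liver, and GTTAAT, a half-site of the liver factor HNF1, each on either strand.

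FGA, chr4:155511895-155512144, minus strand: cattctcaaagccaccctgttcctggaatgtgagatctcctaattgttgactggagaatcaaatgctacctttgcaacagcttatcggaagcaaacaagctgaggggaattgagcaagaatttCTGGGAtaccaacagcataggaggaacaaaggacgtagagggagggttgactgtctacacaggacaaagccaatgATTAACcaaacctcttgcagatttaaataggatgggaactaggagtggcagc

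FGB, chr4:155483913-155484162, plus strand: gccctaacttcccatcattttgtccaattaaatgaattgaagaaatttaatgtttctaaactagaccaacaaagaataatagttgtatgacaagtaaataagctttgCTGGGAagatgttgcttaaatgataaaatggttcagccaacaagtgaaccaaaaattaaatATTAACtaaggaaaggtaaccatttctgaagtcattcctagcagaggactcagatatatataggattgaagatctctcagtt

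FGG, chr4:155533809-155534058, minus strand: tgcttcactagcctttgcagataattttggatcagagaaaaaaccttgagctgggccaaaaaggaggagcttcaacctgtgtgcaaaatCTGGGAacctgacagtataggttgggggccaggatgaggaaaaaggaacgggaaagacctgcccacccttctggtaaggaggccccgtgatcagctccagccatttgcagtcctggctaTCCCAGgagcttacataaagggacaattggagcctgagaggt

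CTGGGA matched 1 time before FGA, 1 time before FGB and 2 times before FGG, and 28.7% of 35116 promoter windows of the same length held it. GTTAAT matched 1 time before FGA and 1 time before FGB and was not among the letters before FGG, and 6.23% of windows held it. The motifs do not overlap one another, were chosen after the expression values were known, and are a description of the letters only. The annotation used for hg19 starts FGG upstream of the RefSeq start, so part of that window lies inside its gene model.

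Several complement genes rose in clone 4 and several genes of bile acid and bilirubin conjugation fell. Of 15 complement components and regulators tested, 6 were higher (40%, against 4.1% of all genes) and 0 lower in clone 4, with a median log2 ratio of 0.47, against −0.013 over all genes. C3, the central component, rose from 12.5 and 11.3 CPM in WT to 54.2 CPM in clone 4, with 7.65 CPM in clone 5. C1S, a protease of the classical pathway, rose from 13.7 and 11.7 CPM to 30.4 CPM. CD55 and CD46, which restrain complement on the cell's own surface, rose from 33.7 and 34.1 CPM to 66.5 CPM and from 279.8 and 263 CPM to 342 CPM. Both lie on chromosome 1 from 200 Mb, and without that region the list median was 0.32. The call of CD46 was lost in edgeR with plain library size (adjusted p = 0.0746). In clone 5 the median of this list was −0.041.

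The liver-type secreted proteins split, with 5 of 20 higher (25%, against 4.1% of all genes) and 2 lower (10%, against 4.06%). Their median changed sign with the members counted, from 0.074 over all 20 to −0.27 over those averaging 5 CPM or more. Of 12 genes of bile acid, bilirubin and drug conjugation, 4 were lower (33.3%) and 2 higher (16.7%). BAAT, which joins bile acids to taurine or glycine, had 51.5 and 51.0 CPM in WT, against 4.66 CPM in clone 4 and 13.6 CPM in clone 5, and so fell in both clones (log2 fold change −3.46 in clone 4, standard error 0.16, adjusted p = 4.56e-06). UGT1A1, which conjugates bilirubin, had 13.4 and 14 CPM in WT, against 3.60 CPM in clone 4 and 2.69 CPM in clone 5. UGT1A9 had 136 and 150 counts in WT and 0 in clone 4. The UGT1A genes overlap one another, so their counts may be shared. SLCO1B3, a bile acid transporter, rose from 10.9 and 9.38 CPM to 23.1 CPM and had 3.22 CPM in clone 5. CPS1, the first enzyme of the urea cycle, fell from 718 and 778 CPM to 292 CPM.

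Among 25 transcription factors of the foregut and liver lineages, 4 were higher (16%, against 4.1% of all genes) and 4 lower (16%, against 4.06%). KLF5, NR5A2, CEBPB and ELF3 rose. NR5A2, a nuclear receptor of liver and pancreas, had 6.35 and 7.55 CPM in WT, against 20.1 CPM in clone 4 and 0.577 CPM in clone 5. KLF5 had 35.8 and 36.1 CPM in WT, against 62.3 CPM in clone 4 and 20.5 CPM in clone 5. HNF4A, SOX9 and RARB were among those that fell. SOX9 had 24.8 and 28.9 CPM in WT, against 12.8 CPM in clone 4 and 31.1 CPM in clone 5. HNF4A, a master regulator of hepatocyte genes, had 39.6 and 45.7 CPM in WT, against 29.4 CPM in clone 4 and 30.1 CPM in clone 5. Its call was near the threshold and was lost with DESeq2 (adjusted p = 0.0595) and limma-voom (adjusted p = 0.0639).

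Among genes of mesenchymal cells and of the matrix, more fell than rose in clone 4. Of 29 tested, 12 were lower (41.4%) and 2 were higher (6.9%), with a median log2 ratio of −0.32, against 0.057 for clone 5 and 0.015 for WT 1 over WT 2. Background shares over all genes were 4.06% and 4.1%. Clone 5 also had calls in this list, 7 higher and 4 lower of 29, against 0.99% of all genes in each direction. ZEB2, a repressor of E-cadherin, had 13.6 and 10.4 CPM in WT, against 0.665 CPM in clone 4 and 27.0 CPM in clone 5. FSTL1, a secreted glycoprotein of the follistatin family, had 9.15 and 8.85 CPM in WT, against 0.222 CPM in clone 4 and 0.577 CPM in clone 5, and was thus near 0 in both clones. SERPINE2, a secreted protease inhibitor, had 54.5 and 55.7 CPM in WT, against 7.38 CPM in clone 4 and 130.4 CPM in clone 5. N-cadherin, encoded by CDH2, fell from 140.3 and 144 CPM to 62.2 CPM, and TGFBI, FBN1 and THBS1 of the matrix fell as well. THBS1 had 113 and 119 CPM in WT, against 81.9 CPM in clone 4, with 177 CPM in clone 5. CTGF, a matricellular protein induced by TGF-beta and YAP, was among those that rose, and its call was lost with DESeq2 (adjusted p = 0.061), limma-voom (adjusted p = 0.0646) and plain library size (adjusted p = 0.079).

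Of 19 collagen chains tested, 5 were lower (26.3%, against 4.06% of all genes) and 1 higher (5.26%, against 4.1%). COL3A1, of fibrillar type III collagen, had 187 and 206 CPM in WT, against 26.7 CPM in clone 4 and 199 CPM in clone 5 (log2 fold change −2.88, standard error 0.12, adjusted p = 2.84e-06). COL5A1 fell from 23.5 and 20.8 CPM to 8.37 CPM, and COL16A1 fell from 3.65 and 3.90 CPM to 0.721 CPM while clone 5 had 10.9 CPM. COL12A1 rose from 72.6 and 67.5 CPM to 145 CPM. Basement membrane genes went both ways. LAMB3, a laminin chain of epithelial basement membranes on chromosome 1 from 200 Mb, rose from 7.21 and 7.31 CPM to 15.4 CPM in clone 4. FRAS1, of the basement membrane under epithelia, fell from 75.9 and 72.6 CPM to 9.21 CPM, and LAMA5 rose from 139.6 and 141 CPM to 204 CPM.

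Markers of other cell types were looked at beside these falls. Fibroblast markers summed to 9754 and 10252 counts in WT, 1452 in clone 4 and 9212 in clone 5. Nearly all of these came from COL3A1, LUM and COL1A1, and the other 8 of 11 markers had under 100 counts in every library, with 3 of them at 0 throughout. LUM had 1204 and 984 counts in WT, 274 in clone 4 and 588 in clone 5. PDGFRA had 62 and 42 counts in WT and 4 in clone 4, and its call was lost with DESeq2 (adjusted p = 0.0742) and limma-voom (adjusted p = 0.111). Their part in the falls was not tested. Of the endothelial markers 9 of 11 were at 0 and only ESAM, an adhesion molecule, had over 100 counts, with 742 and 624 in WT and 106 in clone 4. Leukocyte markers summed to 536 and 532 counts in WT and 522 in clone 4, nearly all from CD68, and 9 of 15 were at 0. In bulk RNA, fewer cells of a kind and less RNA per cell cannot be told apart.

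Among epithelial junction and keratin genes, more rose than fell. Of 23 epithelial junction genes, 6 were higher (26.1%, against 4.1% of all genes) and 0 lower in clone 4 (4.06% of all genes), with a median log2 ratio of 0.15 and of −0.11 in clone 5. F11R, a tight junction adhesion molecule, rose from 59.5 and 61.5 CPM to 108 CPM. CGN (cingulin) rose from 12.0 and 13.5 CPM to 27.3 CPM and had 6.06 CPM in clone 5, and DSP (desmoplakin) rose from 235 and 218 CPM to 317 CPM and had 154 CPM in clone 5. CLDN2, a claudin of leaky epithelia, rose from 12.8 and 11.8 CPM to 21.9 CPM. Of 8 keratin genes listed, 4 rose (50%), and the hair keratin KRT81 fell. KRT8 had 808 and 934 CPM in WT and 1356 CPM in clone 4, its partner KRT18 had 845 and 909.9 CPM in WT and 1215 CPM in clone 4, and KRT80 had 291 and 318 CPM in WT and 516 CPM in clone 4. Of 18 integrin subunits 3 rose (16.7%) and 1 fell (5.56%). ITGAV had 435 and 433 CPM in WT and 572 CPM in clone 4, and ITGA1, a collagen-binding chain, fell from 19.3 CPM in both WT libraries to 9.04 CPM. The rises of ITGA2 and ITGB1 were small and lost their call under some settings, in ITGA2 with limma-voom (adjusted p = 0.0581) and in ITGB1 with plain library size (adjusted p = 0.11).

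YAP and TEAD drive genes of growth and adhesion in spread cells. Of 19 YAP/TEAD targets and factors, 8 were higher (42.1%, against 4.1% of all genes) and 0 lower (4.06% of all genes). The median log2 ratio was 0.25 in clone 4 and 0.11 in clone 5. NUAK2, on chromosome 1 from 200 Mb, rose from 31.6 and 31.3 CPM to 58.3 CPM, TEAD1 from 584 and 589 CPM to 816 CPM and CRIM1 from 525 and 568 CPM to 759 CPM. YAP1 itself had 214 and 231 CPM in WT and 288 CPM in clone 4, a call lost with plain library size (adjusted p = 0.0553). Of 37 TGF-beta receptors, SMADs and targets, 7 rose (18.9%) and 2 fell (5.41%). TGFB2, a ligand, rose from 62.0 and 63.1 CPM to 151 CPM and lies on chromosome 1 from 200 Mb. ID1 and ID3, inhibitors of helix-loop-helix factors that BMP signals induce, had 89.8 and 78.5 CPM and 201 and 206 CPM in WT, 149 CPM and 326 CPM in clone 4, and 53.3 CPM and 148 CPM in clone 5. PMEPA1, a target that dampens TGF-beta signals, fell in both clones, from 299.6 and 298 CPM to 171 CPM in clone 4 and 193 CPM in clone 5. BMP4, a ligand counted with the Wnt targets, rose from 12.0 and 10.3 CPM to 31.2 CPM and had 6.49 CPM in clone 5.

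Of 23 NF-kB targets and chemokines, 7 were higher (30.4%, against 4.1% of all genes) and 0 lower (4.06% of all genes) in clone 4. The medians were 0.29 in clone 4 and 0.38 in clone 5. PTGS2, the inducible cyclooxygenase, had 37.1 and 33.6 CPM in WT, against 102 CPM in clone 4 and 21.3 CPM in clone 5 (log2 fold change 1.53, standard error 0.11, adjusted p = 7.2e-05). BIRC3, an inhibitor of apoptosis, rose in both clones, from 103 and 94.8 CPM to 156 CPM in clone 4 and 175 CPM in clone 5. TNFAIP2 rose in both, from 99.5 and 106 CPM to 159 CPM in clone 4, with 146 CPM in clone 5. The receptor EGFR rose in both, from 107 CPM in each WT library to 170.2 CPM in clone 4 and 149.7 CPM in clone 5. S100P, a calcium-binding protein, rose from 20.2 and 20.1 CPM to 54.1 CPM in clone 4 and 58.5 CPM in clone 5. Of 31 interferon-stimulated genes 2 rose (6.45%) and 1 fell (3.23%), near the shares of all genes. OAS1, which senses double-stranded RNA, rose from 9.77 and 10.4 CPM to 19.5 CPM. No MHC class I presentation gene among 10 passed the edgeR test.

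Chaperones of the endoplasmic reticulum stood higher in clone 4 by small amounts. Of 32 tested, 5 were higher (15.6%, against 4.1% of all genes) and 0 lower (4.06% of all genes). Of the 32, 26 stood above both WT libraries (81.2%, against 37.4% of all genes). The median log2 ratio was 0.21, with 0.019 in clone 5. HSPA5 (BiP), the main chaperone of this compartment, had 1165 and 1211 CPM in WT, against 1487 CPM in clone 4, with 1183 CPM in clone 5. The oxidase ERO1L rose from 153 and 149 CPM to 203 CPM, and the cochaperone DNAJB9 from 26.1 and 23.8 CPM to 38.3 CPM. XBP1, a transcription factor of the unfolded protein response, had 163 and 161 CPM in WT and 205 CPM in clone 4, a call lost with plain library size (adjusted p = 0.0808). The cytosolic chaperones, 23 tested, and the proteasome subunits, 38 tested, had 0 genes past the edgeR test.

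Genes of the amino acid response driven by ATF4 were called in both directions in clone 4 and in 1 direction in clone 5. In clone 4, 4 of 37 were lower (10.8%, against 4.06% of all genes) and 3 higher (8.11%, against 4.1%), with a median log2 ratio of −0.16. In clone 5, 9 were higher and 0 lower, against 0.99% of all genes in each direction, with a median of 0.28. Both comparisons share the WT libraries. ASNS, asparagine synthetase, had 268 and 269 CPM in WT, against 182 CPM in clone 4 and 356 CPM in clone 5, with a test between the clones that passed (log2 clone 4 over clone 5 of −0.97, adjusted p = 0.000379). GPT2, an alanine aminotransferase on chromosome 16, had 40.2 and 40.5 CPM in WT, against 22.4 CPM in clone 4, with 66.3 CPM in clone 5. The falls of PHGDH and CBS, of serine and cysteine synthesis, lost their call with DESeq2 (adjusted p = 0.0612 and 0.0756). EPRS, a tRNA synthetase on chromosome 1 from 200 Mb, had 667 and 675 CPM in WT and 826 CPM in clone 4. Its call was lost in edgeR with plain library size (adjusted p = 0.0507).

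Enzymes that make or use NADP(H), the substrate of NOCT, stood lower in clone 4 by small amounts. Of 31 tested, 4 were lower (12.9%, against 4.06% of all genes) and 1 higher (3.23%, against 4.1%). Of the 31, 21 stood below both WT libraries (67.7%, against 40.0% of all genes). The median log2 ratio was −0.19, with 0.029 in clone 5. In clone 5, 4 of the 31 were called higher and 0 lower, against 0.99% of all genes in each direction. IDH1, the cytosolic isocitrate dehydrogenase that makes NADPH, fell from 166 and 163 CPM to 124 CPM. NNT, the transhydrogenase of the inner mitochondrial membrane, had 30.6 and 27.6 CPM in WT, against 19.7 CPM in clone 4 and 46.5 CPM in clone 5, and its fall lost its call with DESeq2 (adjusted p = 0.0583). NQO1, an NAD(P)H quinone reductase on chromosome 16, had 1470 and 1615 CPM in WT, against 1138 CPM in clone 4 and 2128 CPM in clone 5. CYB5R1, which rose, lies on chromosome 1 from 200 Mb. The genes of NAD synthesis, salvage and use had similar values, with 63.3% of 30 below both WT libraries and a median of −0.16. Of these 30, 1 passed (3.33%), QPRT of the pathway from tryptophan, also on chromosome 16, which fell from 44.5 and 48.0 CPM to 27.3 CPM.

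Targets of NRF2 rose more often than they fell. Of 39 tested, 7 were higher (17.9%, against 4.1% of all genes) and 2 lower (5.13%, against 4.06%), with a median of 0.070. Aldo-keto reductases were among the rises. AKR1C2 had 825 and 794 CPM in WT, against 1183 CPM in clone 4 and 437 CPM in clone 5, and AKR1B10 and AKR1C3 rose as well, to 1789 CPM and 583 CPM in clone 4. The paralogs of the AKR1C family are near identical in sequence, so reads may be split between them. SRXN1, which restores peroxiredoxins, rose from 812 and 860.2 CPM to 1185 CPM, and SQSTM1 (p62) rose from 1182 and 1210 CPM to 1577 CPM. The members that fell were NQO1, on chromosome 16, and UGDH. The call of UGDH was lost with DESeq2 (adjusted p = 0.0702) and limma-voom (adjusted p = 0.0524). ALDH3A1, counted with the aldehyde dehydrogenases and not with this list, fell from 20.2 and 23.5 CPM to 8.82 CPM. Of 18 cytochrome P450s, 4 rose (22.2%) and 0 fell, and their median changed sign with plain library size. CYP4F11 rose from 42 and 41.4 CPM to 118 CPM, CYP24A1, which degrades vitamin D, from 939 and 942 CPM to 1214 CPM with 651 CPM in clone 5, and CYP1B1 in both clones.

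Respiratory chain genes were called lower at about the share of all genes. Of 37 subunits of complex I, 2 were lower (5.41%, against 4.06% of all genes). Of 41 subunits of complexes II to V, 1 was lower (2.44%). Neither list had a rise (4.1% of all genes). NDUFS1, the largest subunit of complex I, fell from 119 and 127 CPM to 71.6 CPM, with 131 CPM in clone 5. NDUFAB1 and UQCRC2, the other members that fell, lie on chromosome 16, as does MRPL28, the only one of 75 mitochondrial ribosome genes that passed (1.33%). The medians were −0.078 for complex I, −0.076 for complexes II to V and −0.076 for the mitochondrial ribosome. In clone 5 they were −0.11, −0.21 and −0.12, below 0 in both clones, and for WT 1 over WT 2 they were 0.10, 0.069 and 0.034. The clone 4 medians depended on the WT library for the respiratory chain. Against WT 1 alone the 3 medians were −0.12, −0.11 and −0.078, and against WT 2 alone −0.0097, −0.026 and −0.084. In clone 4, 8.11%, 7.32% and 21.3% of these members stood above both WT libraries, against 37.4% of all genes, and 48.6%, 39.0% and 52.0% stood below both, against 40.0%. SUCLG2, a subunit of succinyl-CoA ligase, fell from 131 CPM in both WT libraries to 73.5 CPM. PDK4, which restrains pyruvate oxidation, had 39.1 and 39.4 CPM in WT, against 57.8 CPM in clone 4, with 24.5 CPM in clone 5.

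Cytosolic ribosomal protein genes stood lower by small amounts. Of 75 tested, 55 stood below both WT libraries (73.3%, against 40.0% of all genes). In clone 4, 5 were called lower (6.67%, against 4.06% of all genes) and 0 higher (4.1% of all genes), and the median log2 ratio was −0.19. The median was −0.10 in clone 5 and 0.071 for WT 1 over WT 2. RPS2, RPS15A and RPL13, which lie on chromosome 16, were among the 5, and RPS2 fell from 209.6 and 177 CPM to 101 CPM. The others were RPL13A, from 200 and 190.4 CPM to 143 CPM, and RPL23A, from 143 and 120.1 CPM to 91.3 CPM. Without the chromosome 16 members the median was −0.19. Ribosomal protein genes have many processed pseudogenes that can share their reads, so single values are uncertain.

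Genes of the oxygen response went both ways, with more rises. Of 40 genes of glycolysis and the hypoxia response, 8 rose (20%, against 4.1% of all genes) and 3 fell (7.5%, against 4.06%). EPAS1 (HIF-2 alpha) rose from 458 and 505 CPM to 885 CPM, HIF1A from 296 and 282 CPM to 439.6 CPM, and EGLN3, an oxygen-sensing prolyl hydroxylase, from 18.2 and 19.8 CPM to 46.1 CPM. None of the 3 passed the test in clone 5 against WT, where EPAS1 had 469 CPM in clone 5. The glycolytic enzyme ALDOA, on chromosome 16, fell from 568 and 609 CPM to 437 CPM. Of 28 cholesterol synthesis genes, 4 fell (14.3%) and 1 rose (3.57%). INSIG1, which the sterol pathway induces and which restrains it, fell from 45.5 and 46.5 CPM to 29.3 CPM, IDI1 from 159.7 and 148 CPM to 107 CPM and MSMO1 from 74.3 and 76.2 CPM to 55.2 CPM. SCD, the stearoyl-CoA desaturase, fell in both clones, from 1307 and 1436 CPM to 1011 CPM in clone 4, with 859.9 CPM in clone 5. The adipogenic receptor PPARG rose from 39.5 and 43.5 CPM to 68.2 CPM.

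Few cell cycle genes were called in clone 4, and those of DNA replication and G1/S were called lower at about the share of all genes. Of 45 G2/M and mitosis genes, 4 rose (8.89%, against 4.1% of all genes) and 0 fell (4.06% of all genes). Of the 45, 25 stood above both WT libraries (55.6%, against 37.4% of all genes). ASPM, KIF14 and CENPF rose, with ASPM going from 348 and 319.5 CPM to 501 CPM. CENPF lies on chromosome 1 from 200 Mb, as does KIF14. ASPM starts just below that limit on the same chromosome, at 197053251. In its 20 Mb window 11 of 35 genes were called higher and 5 lower. AURKA had 319 and 346 CPM in WT and 422 CPM in clone 4, a call lost with plain library size (adjusted p = 0.0674). Of 43 genes of DNA replication and G1/S, 2 fell (4.65%, near the 4.06% of all genes) and 0 rose. The 2 were CDT1 and GINS2, both on chromosome 16, and CDT1 lost its call with limma-voom (adjusted p = 0.0753). Among the annexins, ANXA3 rose from 17.4 and 16.5 CPM to 41.8 CPM and had 7.50 CPM in clone 5, and ANXA10 fell in both clones, from 52.7 and 45.3 CPM to 21.1 CPM in clone 4, with 25.1 CPM in clone 5. The histone gene HIST1H2BK fell from 38.8 and 44.3 CPM to 16.3 CPM, with 62.1 CPM in clone 5. MT2A, a metallothionein, and MAP1LC3B, of autophagy, fell from 21.3 and 19.5 CPM to 7.49 CPM and from 58.1 and 59.8 CPM to 30.3 CPM, and both lie on chromosome 16.

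**Figure D5:**
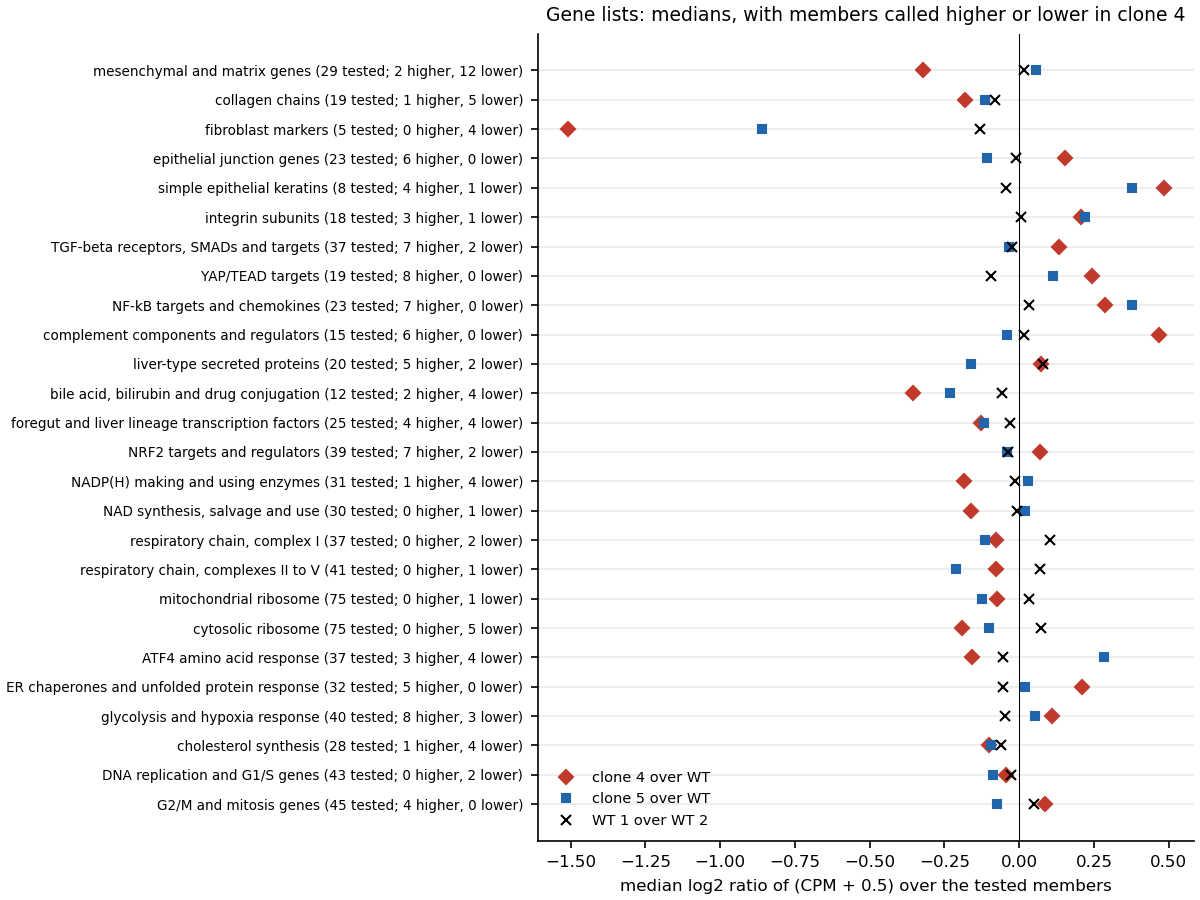
Median log2 ratio of (CPM + 0.5) over the tested members of 26 gene lists, for clone 4 over WT (diamonds), clone 5 over WT (squares) and WT 1 over WT 2 (crosses), with the number of members called higher or lower in clone 4 beside each name. The medians of mesenchymal genes (−0.32) and complement genes (0.47) lie farther from 0 in clone 4 than in clone 5 (0.057 and −0.041). In clone 5, 7 of 29 mesenchymal genes were called higher and 4 lower. The respiratory chain lists lie below 0 in both clones and above 0 for WT 1 over WT 2.

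Few of the changes in clone 4 were shared with clone 5. Against the same WT libraries, clone 5 had 135 genes higher (0.99%) and 135 lower (0.99%). Of the 559 genes higher in clone 4, 28 (5.01%) were also called higher in clone 5, 55 were called lower there and 476 were not called. Of the 553 genes lower in clone 4, 22 (3.98%) were also called lower in clone 5, 28 were called higher and 503 were not called. Seen from clone 5, 20.7% of its higher and 16.3% of its lower genes were called in the same direction in clone 4. Both comparisons share the WT libraries, so errors in WT push both clones the same way, and these counts are a description. Between the clones themselves 1377 genes (10.1%) differed by the test. Among the genes higher in clone 4 than in WT, 354 were also higher than in clone 5, and among those lower, 426 were also lower than in clone 5. The clone 4 library enters both comparisons, so they are not independent. Of the genes named above, BAAT, FSTL1, UGT1A1, LUM, COL1A1, PMEPA1, TGFBI, SCD and ANXA10 were called lower in both clones, and PLXNA2, S100P, EGFR, BIRC3, TNFAIP2, CTGF, ITGA2 and CYP1B1 were called higher in both.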

How the data were processed

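RNA of 4 A549 libraries was sequenced by the authors, and per the labels reads were placed on hg19 with TopHat2 and counted per gene with HTSeq, with no versions stated. The deposited table holds raw counts per gene. Annotation, strand setting and kit: not given in the sources used here. Overlapping and antisense genes therefore cannot be told apart. Between 99.1% and 99.2% of nonzero counts were even, so a fit on halved counts was run as an alternative. Of 23368 lines, 28 are named by a calendar date and hold 0.274% of counts. They were dropped, which left 23340. Symbols were matched to a gene annotation of hg19, 19556 as given and 1908 by an older symbol, and 1876 were not matched.

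Counts were filtered with edgeR 4.0.16 (filterByExpr, minimum count 10, total 15), scaled by TMM and tested with the quasi-likelihood test in R 4.3.3, in 1 fit over WT, clone 4 and clone 5, with Benjamini-Hochberg adjustment over 13630 genes and a threshold of 0.05. The common biological coefficient of variation of the fit was 8.38%. Medians over lists and regions use log2(CPM + 0.5), which understates the change of low genes, and single genes use the fitted log2 fold change. A fold against a library at 0 uses a floor of 3 counts per library. Named genes are the 15 largest rises and falls among genes averaging 5 CPM or more, the 4 smallest p-values of each list, 3 per described window, NOCT and A1CF. Other list members were picked after their values were seen. The gene lists and the comparison were chosen with earlier results of these data known. DESeq2 1.42.0, limma 3.58.1 (voom), other scalings and filters, and leaving out each WT library were alternatives. The fit was tested on simulated data. Some genes that the naming rule picks are not reported here. Tables and plots used Python 3.11.15, pandas 2.3.3, numpy 2.4.6 and matplotlib 3.10.9.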

Additional observations from a re-analysis of the deposited data

Results flagged for a closer look

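In 55 genes clone 4 was called higher than WT and clone 5 lower, and in 28 genes the reverse held. All of them also differed between the clones by the edgeR test. That test uses the same libraries as the calls against WT, so it adds no separate support. The genes of this kind that the report names follow, as log2 of clone 4 over clone 5, from 1 library a clone.

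Among secreted, matrix and surface proteins, FGB was at least 1118-fold and FGG at least 178-fold higher in clone 4. The log2 ratio was 10.11 for NRCAM, 8.69 for SVEP1, 8.23 for FGA, 4.72 for TGM2, 3.64 for GPC6, 2.84 for SLCO1B3, 2.17 for CGN, 1.03 for DSP and 0.61 for ITGB1. Among enzymes it was 7.42 for DIO2, 4.51 for TMTC1, 2.26 for PTGS2, 1.44 for AKR1C2, 1.24 for PDK4, 0.90 for CYP24A1 and 0.80 for AKR1C3. Among regulators it was 5.12 for NR5A2, 4.56 for BHLHE41, 1.60 for KLF5, 1.48 for ID1 and 1.14 for ID3, and for the annexin ANXA3 it was 2.48.

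In the other direction, SIDT1 was at least 339-fold higher in clone 5. The ratio was −6.45 for KRT81, −6.15 for RGL1, −5.33 for ZEB2, −4.14 for SERPINE2, −3.91 for COL16A1 and −1.11 for THBS1. It was −2.18 for MT2A, −1.57 for GPT2, −1.52 for CACNA1H and −0.90 for NQO1, which lie on chromosome 16, and −1.24 for NNT and −0.97 for ASNS.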

How the results depend on the processing

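Without a filter on low counts 366 genes were called in clone 4 (182 higher, 184 lower) against 1112, and 29 in clone 5 against 270. Clone 5 gave 461 with a filter on at least 2 libraries, an alternative chosen after seeing the data, and 482 with halved counts. In clone 4 the other fits gave 946 genes with DESeq2, 930 with limma-voom, 1128 with DESeq2 size factors, 1198 with plain library size, 1502 with the filter on 2 libraries and 1518 with halved counts. The 330 genes past 2-fold became 171 with a pseudocount of 2 CPM, 164 at a mean of at least 5 CPM, and 448 to 504 with 1 WT library left out. Windows of 10 Mb gave 13 shifted windows against 8 of 20 Mb. The log2 fold change of NOCT passed the test at 0.53 with DESeq2 size factors (0.5267) and without clone 5 (0.5273), and at 0.52 with the filter on 2 libraries (0.5201) and with halved counts (0.5195). Of 155 other genes named, 49 lost their call without a filter and at most 10 under any other fit, and 0 changed direction. With 1 WT library left out, the log2 ratio of (CPM + 0.5) lay more than 1 SD of the WT pair from the fitted value in 54 genes without WT 1 and in 47 without WT 2. The ratio and the fitted value are computed differently, so these counts do not measure how far a gene depends on 1 WT library. The medians of 16 of 59 lists changed sign under some alternative. The causes were not tested. No paired analysis was possible because the groups compared share fewer than 2 replicate numbers. Leaving out a WT library left no residual degrees of freedom, so single genes then had a ratio and no test.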

Other observations

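The 28 lines named by dates, which may be gene symbols altered by a spreadsheet, took between 0.261% of counts (clone 4) and 0.286% (WT 2). In 18 of them each library held 100 counts or more.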
